A study of Mus musculus with 12 samples.

Results

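Autophagosomes wrap cytoplasm in a double membrane and deliver it to lysosomes, which digest it. A list of 41 mouse genes of these organelles, taken by gene name, was chosen with earlier results of these data known. It was followed through RNA sequencing of the tibialis anterior, a fast-twitch muscle at the front of the shin. All 41 were among the 13609 genes held by all 3 deposited tables, out of 13865 genes held by at least one. The study has 3 groups of 4 libraries, all from C57BL/6J mice. Sham mice carried no tumour and ate standard chow. KPC mice ate standard chow and carried tumours grown from KPC cells, which are cultured pancreatic cancer cells of the mouse and were injected into the surgically exposed pancreas. KPC_UA mice carried the same kind of tumour and ate chow with added ursolic acid, a plant triterpenoid. All tumours came from injected cells of a cultured line rather than arising in the host's own pancreas, and the growth notes do not describe an injection given to Sham mice. The labels do not say that each library is a separate mouse, so p-values measure the spread between these samples, which may be partly technical. Each library held between 22.3 and 32.0 M reads in the listed genes.

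In autophagy, the ULK1 kinase complex starts the process and a lipid kinase complex around BECN1 and PIK3C3 marks the membrane where the autophagosome grows. A conjugation cascade attaches proteins of the ATG8 family (LC3 and GABARAP proteins) to that membrane, and cargo receptors tether ubiquitin-tagged material to them. Lysosomes are kept acidic by the V-ATPase, a proton pump, and hold cathepsins and other hydrolases, and TFEB and TFE3 are transcription factors that bind CLEAR elements, which contain the letters CACGTG, in promoters of many lysosomal genes. Skeletal muscle uses this route to break down cell contents in fasting and wasting, and FOXO factors are known to raise several of its transcripts there.

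Because TFEB and TFE3 read promoters, the promoter letters of the 41 genes were searched on both strands, in RefSeq windows (GRCm38.p6) of 300 bases that run from 250 before to 50 after the start site. Windows were found for 32 of the 41 genes. A gene with more than 1 window counted as a match if any of its windows held the letters. CACGTG was in the windows of 12 of these 32 genes (37.5%), against 8.09% of 27025 genes with a window and 11.8% of the 10089 such genes in the deposited tables. The longer TCACGTGA, which contains CACGTG, was in 6 of 32 (18.8%), against 1.12% and 2.24%, and these 6 were Atg3, Mcoln1, Ctsa, Ctsd, Atp6v1a and Atp6v0d1. The full CLEAR palindrome, which extends TCACGTGA by a base on each side, was in 0 of 32 (0.370% and 0.803%). TGTTTAC, a form of the FOXO site, was in 0 of 32 (4.05% and 3.20%), which says only that those letters are not in these windows. Other forms of that site were not searched. GGGCGG, a GC box, was in 23 of 32 (71.9%), against 68.0% of the deposited genes. A match is a description of the letters and not evidence of binding. The windows below are shown in lower case with CACGTG, or TCACGTGA where present, in capitals, 5′ to 3′ on the gene's strand. The first of them, Lamp1, holds the most CACGTG copies of the 32 genes, with 4. Ctsa has 2 windows, and the one shown holds TCACGTGA on both sides of its start site, while the other holds no CACGTG. Mcoln1 and Atp6v1a stand for a channel and a pump subunit with TCACGTGA. Gabarapl1, with the largest log2 fold change in KPC against Sham, and Map1lc3b, with the smallest limma p, hold neither form.
Lamp1 (chr8:13158911-13159210, plus strand): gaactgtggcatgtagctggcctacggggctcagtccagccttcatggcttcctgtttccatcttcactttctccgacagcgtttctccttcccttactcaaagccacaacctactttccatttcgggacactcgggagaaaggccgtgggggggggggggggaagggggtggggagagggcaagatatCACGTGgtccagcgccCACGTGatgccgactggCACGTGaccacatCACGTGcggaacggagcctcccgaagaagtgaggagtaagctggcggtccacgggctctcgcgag
Ctsa (chr2:164833523-164833822, plus strand): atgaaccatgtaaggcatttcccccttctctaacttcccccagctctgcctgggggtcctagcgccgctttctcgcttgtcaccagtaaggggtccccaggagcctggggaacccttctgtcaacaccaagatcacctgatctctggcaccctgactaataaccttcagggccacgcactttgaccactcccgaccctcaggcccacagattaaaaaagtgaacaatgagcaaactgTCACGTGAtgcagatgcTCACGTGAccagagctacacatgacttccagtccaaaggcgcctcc
Mcoln1 (chr8:3500269-3500568, plus strand): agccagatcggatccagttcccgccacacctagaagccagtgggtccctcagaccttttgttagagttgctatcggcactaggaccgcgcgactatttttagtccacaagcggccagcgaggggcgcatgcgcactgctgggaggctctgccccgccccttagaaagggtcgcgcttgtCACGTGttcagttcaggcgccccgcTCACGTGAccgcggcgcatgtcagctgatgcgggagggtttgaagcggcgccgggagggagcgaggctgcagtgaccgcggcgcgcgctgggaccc
Atp6v1a (chr16:44139210-44139509, minus strand): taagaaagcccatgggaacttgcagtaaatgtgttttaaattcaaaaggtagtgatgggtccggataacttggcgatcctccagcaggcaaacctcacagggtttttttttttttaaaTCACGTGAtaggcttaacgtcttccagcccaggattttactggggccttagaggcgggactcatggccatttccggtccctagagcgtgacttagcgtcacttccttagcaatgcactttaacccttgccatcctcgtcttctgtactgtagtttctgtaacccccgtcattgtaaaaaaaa
Gabarapl1 (chr6:129532942-129533241, plus strand): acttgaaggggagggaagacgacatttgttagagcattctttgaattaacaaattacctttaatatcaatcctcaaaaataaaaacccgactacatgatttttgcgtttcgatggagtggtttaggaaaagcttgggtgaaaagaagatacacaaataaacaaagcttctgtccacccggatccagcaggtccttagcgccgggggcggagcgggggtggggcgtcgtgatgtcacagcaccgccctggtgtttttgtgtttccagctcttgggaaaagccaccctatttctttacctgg
Map1lc3b (chr8:121590188-121590487, plus strand): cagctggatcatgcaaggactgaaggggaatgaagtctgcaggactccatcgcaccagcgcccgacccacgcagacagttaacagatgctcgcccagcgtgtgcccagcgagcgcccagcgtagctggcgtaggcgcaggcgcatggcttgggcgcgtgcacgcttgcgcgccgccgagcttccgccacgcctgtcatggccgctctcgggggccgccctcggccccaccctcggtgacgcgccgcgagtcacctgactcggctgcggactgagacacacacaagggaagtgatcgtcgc

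In Sham muscle the levels of the genes spanned a wide range when expressed per kb of exonic length, which allows genes to be set beside each other. Psap, the precursor of the saposins that help hydrolases digest sphingolipids, was highest at 8250.3 ± 452 normalised reads per kb (SD, n = 4). Ctsd, the aspartic protease cathepsin D, was at 4289 ± 629 and Sqstm1, the ubiquitin-binding cargo receptor p62, at 4199 ± 459, which differed by less than their SD. Lamp1, an abundant glycoprotein of the lysosomal membrane, was at 3263 ± 202 and Map1lc3a, an LC3 gene, at 2947 ± 406. These 5 genes held 67.2% of the summed level of the 41 genes. The lowest level was that of Tfe3 at 20.1 ± 0.46, and the highest level was 411 times the lowest. Tfeb was at 354 ± 39.2 per kb, well above Tfe3. The 8 myofibre markers (Acta1, Ckm and others), summed, were between 3886138 and 4678999.5 normalised reads in Sham, between 3616048 and 4318887 in KPC and between 3736045 and 4652261 in KPC_UA, and 0 of them was absent from any library.

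**Figure D1:**
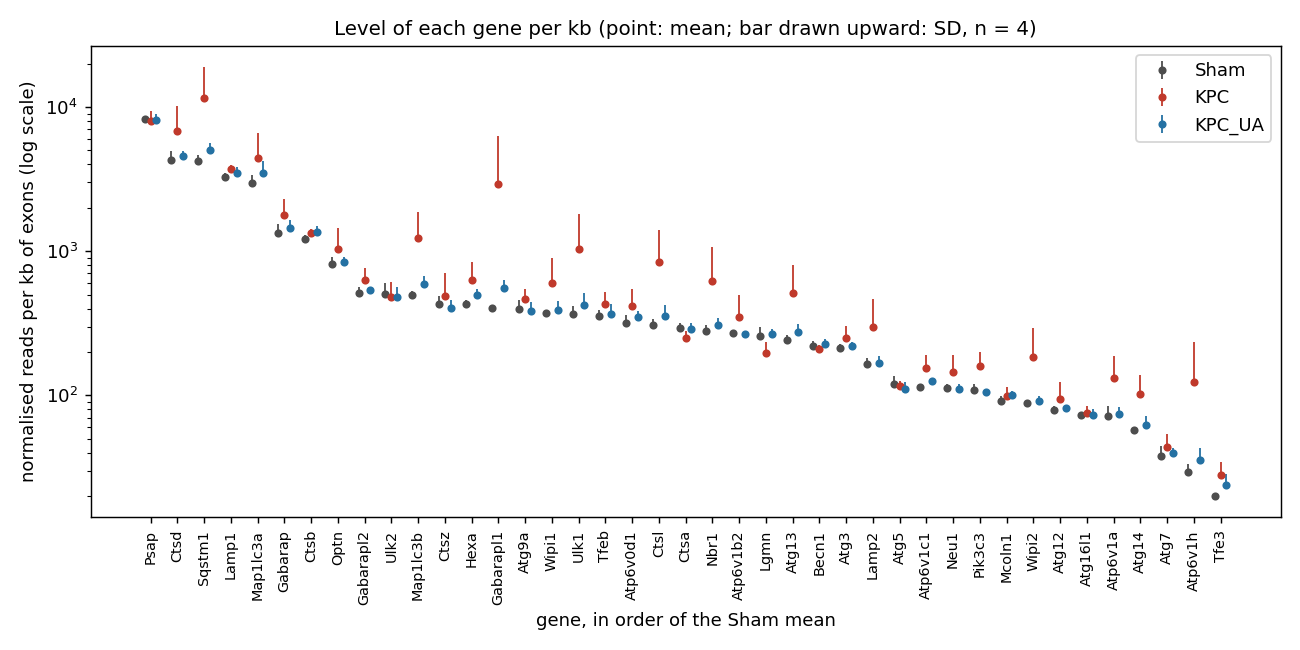
Mean normalised reads per kb of exonic length (log scale) of the 41 genes in each group, ordered by the Sham mean; bars drawn upward are SDs of 4 libraries. Psap is highest and Tfe3 lowest in Sham, and the KPC points of Gabarapl1 and Atp6v1h stand farthest above their Sham points, with long bars.

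The first comparison, of KPC with Sham, asks how these transcripts differ in muscle of tumour-bearing mice. Fold changes are given with their SE as log2 fold change ± SE on the scale of log2(normalised reads + 1). Genes that start autophagosomes (Ulk1, Atg13, Atg14, Wipi2), that coat them or tether cargo (Map1lc3b, Gabarapl1, Sqstm1, Nbr1), and Ctsl, Atp6v1a and Atp6v1h on the lysosomal side, were higher in all 4 KPC libraries than in all 4 Sham libraries. Transcripts of the conjugation cascade, Becn1, Psap and Ctsb were close to their Sham levels, with log2 fold changes between -0.06 and 0.21. The median log2 fold change of the 41 genes was 0.34, against 0.01 over all 13542 genes tested, and 35 of the 41 were positive (6838 of those 13542). With quantile scaling that median was 0.20. Because the list was chosen with earlier results known, the shares of all genes given beside it describe it and do not test it. With limma and Benjamini-Hochberg adjustment over all genes tested, 0 of the 41 passed an adjusted p of 0.05 (160 of all genes, 1.18%), and the smallest adjusted p was 0.104 by limma, for Map1lc3b. At an unadjusted p under 0.05, 14 were higher and 0 lower, where 12.1% and 12.4% of all genes were. On the reads recovered from the tables, DESeq2 called 11 of the 41 higher and 0 lower, where it called 6.79% of all genes higher and 5.03% lower, and the authors' deposited table has an adjusted p under 0.05 for the same 11. edgeR over all 12 libraries called 10 of those 11, leaving out Nbr1 (adjusted p = 0.0501 by edgeR), where it called 6.55% of all genes higher and 4.5% lower. Run on the libraries of this pair alone, edgeR called 0 of the 41, with a count of all genes near that of limma. Beside those 11, the 4 KPC values lay above the 4 Sham values in Pik3c3, Lamp2 and Atp6v1c1, making 14 genes of 41 higher without overlap (10% of all genes) and 0 lower (9.11%). In whole-muscle RNA, a change in the number of cells of a type and a change in RNA per cell cannot be told apart.

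**Figure D2:**
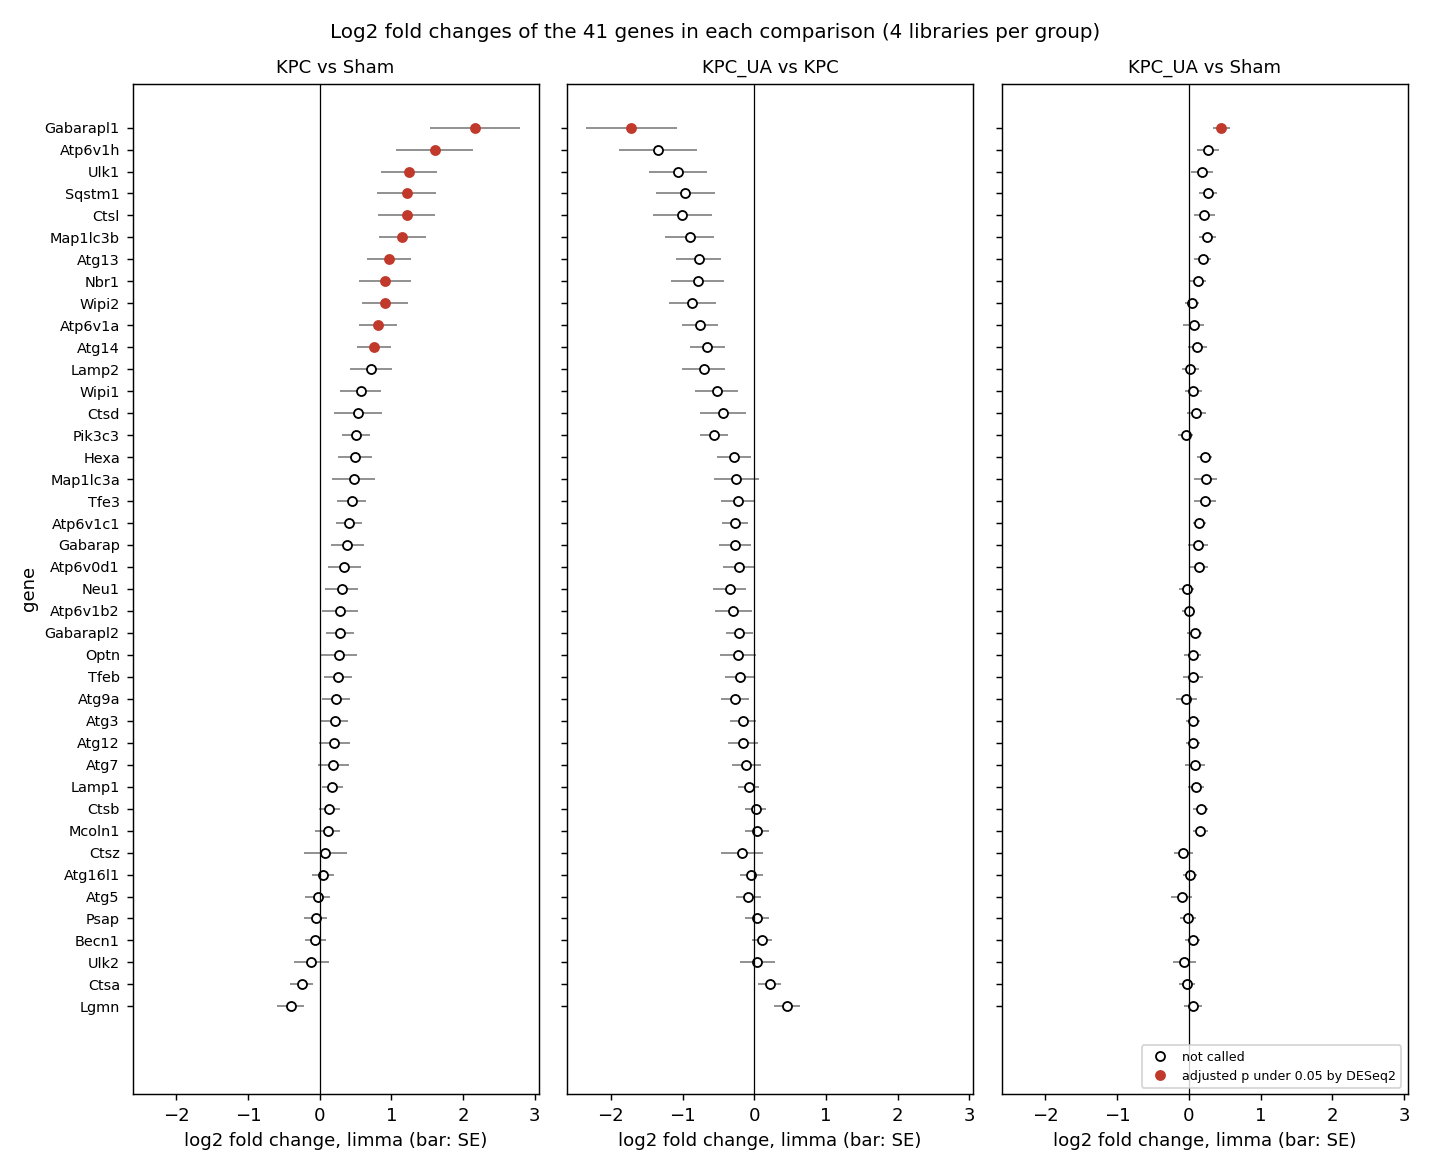
Log2 fold changes by limma with SEs for the 41 genes in each comparison, in the order of KPC against Sham; filled points have an adjusted p under 0.05 by DESeq2. In KPC against Sham 11 points are filled, all to the right of 0, and in each of the other comparisons only Gabarapl1 is filled.

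Values per library are given as normalised reads, on a scale set over all 12 libraries, in the order of replicates 1 to 4. Among the genes of initiation, Ulk1, the kinase that starts autophagosome formation (chromosome 5, 110784488 to 110810097, GRCm38), was at 1951, 2507, 2448 and 2628 in Sham, 14278, 3249, 4797 and 4459.8 in KPC and 2197, 2304, 3530.0 and 2892 in KPC_UA. Every KPC value was above every Sham value, KPC replicate 1 stood far above the rest, and the KPC_UA libraries overlapped Sham. In KPC against Sham the log2 fold change was 1.24 ± 0.39 (SE), with adjusted p-values of 0.118 by limma and 0.00958 by DESeq2. Atg13, a scaffold of the ULK1 complex, was at 950.1, 1183, 1059 and 1004 in Sham, 4072, 1284, 1656 and 2005 in KPC and 1122, 1019.9, 1365 and 1297 in KPC_UA. KPC again lay above Sham in every library, with replicate 1 highest, and the log2 fold change was 0.96 ± 0.31 (SE), with adjusted p-values of 0.124 by limma and 0.0207 by DESeq2. Atg9a, the lipid scramblase of early autophagosome vesicles, was at 1789, 2676, 2348 and 2276 in Sham, 3128, 2449, 2976 and 2119.9 in KPC and 2180.3, 1736, 2442 and 2458 in KPC_UA, and the 3 groups overlapped. It had a log2 fold change of 0.23 ± 0.19, and 31.8% of its exonic length is shared with the predicted gene Gm29253 on the same strand, so its reads are uncertain. Ulk2, the paralog of Ulk1, had a log2 fold change of -0.12 ± 0.25.

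In the nucleation group, Atg14, the subunit that directs the lipid kinase complex to autophagosomes (chromosome 14, 47540893 to 47570649), was at 238, 258, 249.9 and 242 in Sham, 657, 296, 374 and 428 in KPC and 236, 231, 323 and 287 in KPC_UA. All KPC values lay above all Sham values, and KPC replicate 2 was nearest to Sham. The log2 fold change was 0.76 ± 0.23 (SE), with adjusted p-values of 0.116 by limma and 0.0249 by DESeq2. Wipi2, which binds the lipid made by that complex and recruits the conjugation machinery (chromosome 5, 142627698 to 142670588), was at 928, 956, 933 and 893 in Sham, 3577, 1085, 1275 and 1863 in KPC and 861, 1003, 1037 and 933 in KPC_UA. KPC lay above both other groups in every library, KPC replicate 1 highest, with a log2 fold change of 0.91 ± 0.32 (SE) and adjusted p-values of 0.143 by limma and 0.0317 by DESeq2. Pik3c3, the lipid kinase itself, was at 451, 543, 450.4 and 504 in Sham, 989.95, 589, 597 and 658 in KPC and 437, 474, 483 and 482 in KPC_UA. Its KPC values lay above the other 8 libraries, but the log2 fold change of 0.51 ± 0.20 had an adjusted p of 0.163 by limma and 0.0965 by DESeq2. Wipi1, a relative of Wipi2, had a log2 fold change of 0.57 ± 0.29. Becn1, the scaffold of the complex, had one of -0.06 ± 0.14, and 43.9% of its exonic length lies under Cntd1 on the opposite strand. Strand use in the authors' counting was not given in the sources used here, so reads of such overlapping pairs cannot be told apart.

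The conjugation machinery had small fold changes. Atg3, the enzyme that hands ATG8 proteins to lipid, was at 689.6, 720.4, 659.8 and 618 in Sham, 981, 625, 672 and 885 in KPC and 738, 728, 646 and 675 in KPC_UA. Atg12, the ubiquitin-like partner of Atg5, was at 669.9, 596, 601 and 569 in Sham, 1073, 630.4, 557 and 639.95 in KPC and 628, 652, 611 and 624 in KPC_UA. For Atg7, the enzyme that activates both ubiquitin-like proteins, the values were 238, 275, 325 and 225 in Sham, 369, 273, 229 and 357 in KPC and 256, 268, 285 and 309 in KPC_UA. In each of these genes KPC replicate 1 was the highest library, KPC replicate 4 was also above Sham in Atg3 and Atg7, and the remaining KPC libraries overlapped Sham or lay just below it. Log2 fold changes in KPC against Sham were 0.21 ± 0.18 for Atg3, 0.20 ± 0.21 for Atg12 and 0.19 ± 0.21 for Atg7. Those of Atg16l1 and Atg5, which form the complex that sets where conjugation occurs, were 0.05 ± 0.15 and -0.03 ± 0.17. The smallest adjusted p of these 5 genes was 0.478 by limma, and 0 of 5 were called by DESeq2.

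The ATG8 family was divided. Gabarapl1, a GABARAP paralog (chromosome 6, 129533160 to 129542346), was at 786, 759.8, 850.5 and 838 in Sham, 15785, 1239.5, 2018 and 4394 in KPC and 915, 1149, 1296 and 1087 in KPC_UA. Every KPC value lay above every Sham value, KPC replicates 1 and 4 were the 2 highest, and the KPC_UA values lay above Sham and overlapped the lowest KPC library. At 2.16 ± 0.63 (SE), with adjusted p-values of 0.105 by limma and 0.000231 by DESeq2, its log2 fold change was the largest of the 41, although 28.3% of its exonic length lies under 1700101I11Rik on the opposite strand. Map1lc3b, the gene of LC3B (chromosome 8, 121590361 to 121598760), was at 4040.2, 3651, 3683 and 3476 in Sham, 14759.7, 4734, 5722 and 11661 in KPC and 3584, 4749, 4606 and 4857 in KPC_UA. Again the KPC values lay above all Sham values, with replicates 1 and 4 apart from replicates 2 and 3. The log2 fold change was 1.15 ± 0.33 (SE), with adjusted p-values of 0.104 by limma and 0.00600 by DESeq2. Gabarap was at 2995, 2309, 2491 and 2015 in Sham, 4166, 2425, 2486 and 4044 in KPC and 2309, 3152, 2522 and 2620.0 in KPC_UA, with KPC replicates 1 and 4 highest and the other KPC libraries inside the Sham range. Log2 fold changes were 0.38 ± 0.23 for Gabarap, 0.48 ± 0.30 for Map1lc3a and 0.28 ± 0.19 for Gabarapl2, none of them called. Gabarapl2 is uncertain because 3 pseudogenes match about 21% of its longest transcript at 95% identity or more.

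Of the cargo receptors, Sqstm1 (chromosome 11, 50199366 to 50210827) was at 13134, 15062, 15707 and 12465 in Sham, 65449.98, 15794, 20459 and 53208 in KPC and 14325, 16482, 19068 and 17425 in KPC_UA. KPC replicates 1 and 4 were more than 2-fold above every other library, while KPC replicate 2 was just above the highest Sham value. The receptor had a log2 fold change of 1.21 ± 0.41 (SE), with adjusted p-values of 0.134 by limma and 0.0105 by DESeq2. Of its exonic length 17.3% lies under Mrnip on the opposite strand. Nbr1, a receptor with a like domain layout, was at 1687, 1948, 1971 and 2103 in Sham, 8929, 2507, 2584 and 2937 in KPC and 2075, 1722, 2346 and 2256 in KPC_UA. All KPC values were above the other 8 libraries, but replicate 1 was about 3-fold above the other KPC libraries. The log2 fold change was 0.91 ± 0.36 (SE), with adjusted p-values of 0.171 by limma and 0.0475 by DESeq2. Optn, the receptor optineurin, was at 3335, 2872, 3335 and 2622 in Sham, 6208, 2995, 2731 and 3540.4 in KPC and 3354, 3034, 2785 and 3386 in KPC_UA, with KPC replicates 1 and 4, but not 2 and 3, above the Sham range and a log2 fold change of 0.27 ± 0.25. The transcription factor Tfe3 was at 182, 184, 186 and 192 in Sham, 329, 183, 247 and 278 in KPC and 259, 155, 237 and 232 in KPC_UA. KPC replicate 2 lay within the Sham range and the other KPC libraries lay above it, as did 3 of the 4 KPC_UA libraries, with a log2 fold change of 0.44 ± 0.21 (SE) and an adjusted p of 0.213 by limma. Tfeb was at 2196, 2166, 1951 and 1717 in Sham, 2632, 1768, 2334 and 2983 in KPC and 1623, 2312, 2126 and 2313 in KPC_UA, the groups overlapped, and its log2 fold change was 0.25 ± 0.19.

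**Figure D3:**
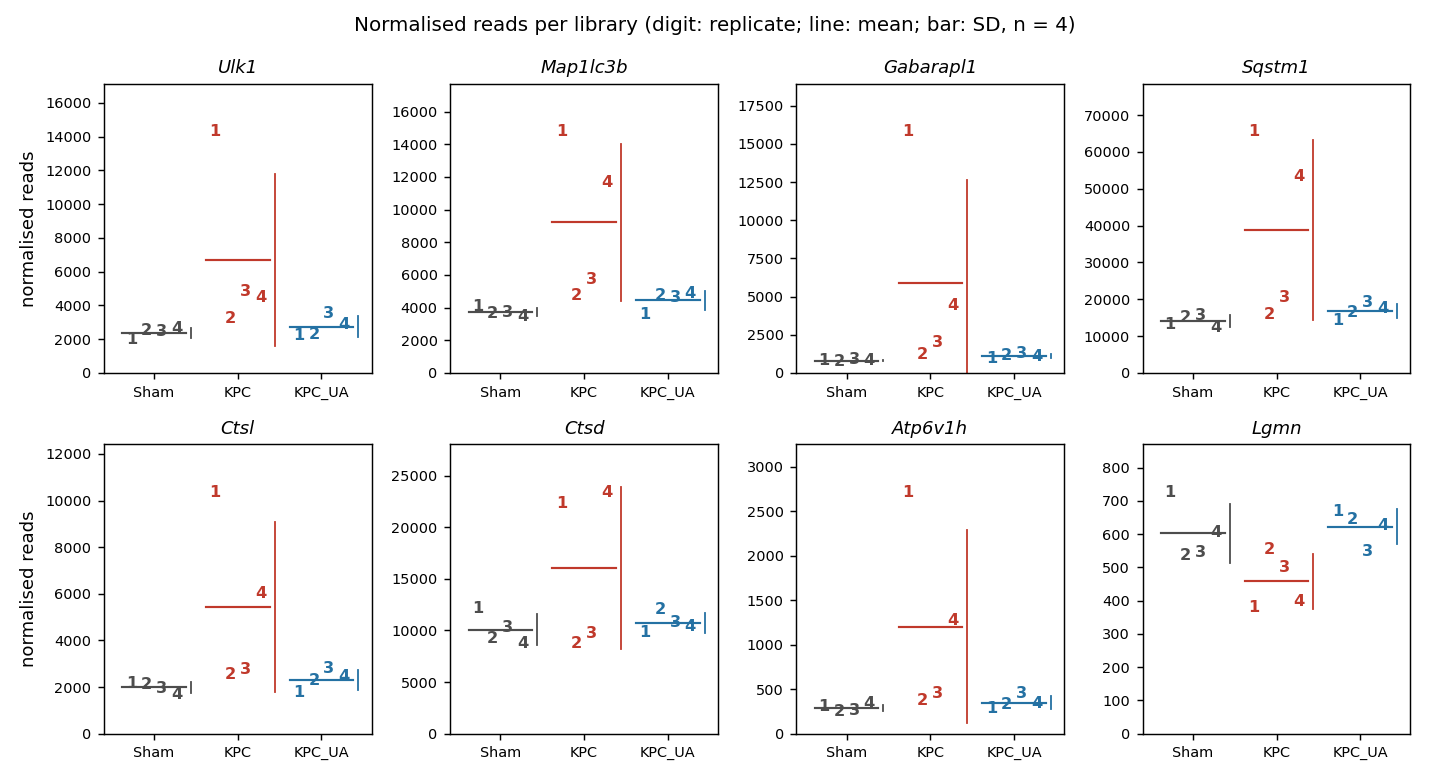
Normalised reads in each library for 8 genes, with digits for replicates 1 to 4, a line at the group mean and a bar of 1 SD (n = 4, bars cut at 0). In Ulk1, Map1lc3b, Gabarapl1, Sqstm1, Ctsl and Atp6v1h KPC replicate 1 is highest and all KPC values lie above Sham, in Ctsd only KPC replicates 1 and 4 lie above Sham, and in Lgmn these replicates are the lowest.

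On the lysosomal membrane, Lamp2, which is needed for fusion with autophagosomes (chromosome X, 38401357 to 38456454), was at 1365, 1599, 1701 and 1669.5 in Sham, 5219.6, 2020.2, 1974 and 2184 in KPC and 1615, 1342, 1818 and 1632 in KPC_UA. KPC values lay above the other 8 libraries, and replicate 1 more than 2-fold above the remaining KPC libraries. The log2 fold change of 0.72 ± 0.30 had an adjusted p of 0.178 by limma and 0.0775 by DESeq2. Lamp1, the gene with 4 CACGTG copies in the window shown above, was at 9316, 8120.3, 9025 and 8453 in Sham, 10380.0, 9293, 9137 and 10649 in KPC and 8304, 10045, 9062 and 9972 in KPC_UA. Mcoln1, a calcium channel of the lysosome, was at 617, 656, 751 and 718 in Sham, 679, 617, 811 and 881 in KPC and 698, 778, 799.98 and 766 in KPC_UA. Groups overlapped in both, with log2 fold changes of 0.17 ± 0.15 and 0.11 ± 0.17.

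The lysosomal proteases had fold changes of both signs. Ctsl, the cysteine protease cathepsin L (chromosome 13, 64359337 to 64370890), was at 2167, 2127, 1943 and 1689.6 in Sham, 10343, 2539.6, 2773 and 6022 in KPC and 1746, 2269, 2787 and 2448 in KPC_UA. All KPC values were above all Sham values, those of replicates 1 and 4 by more than 2-fold. Cathepsin L had a log2 fold change of 1.21 ± 0.40 (SE), with adjusted p-values of 0.127 by limma and 0.0104 by DESeq2, and 26.8% of its exonic length lies under Gm47123 on the opposite strand. Lgmn, legumain, which cuts after asparagine and processes other lysosomal proteases, was at 725, 535, 544 and 604 in Sham, 380.4, 553, 499.9 and 399 in KPC and 669, 644, 547 and 625 in KPC_UA. KPC replicates 1 and 4 were its 2 lowest libraries, and the log2 fold change was -0.40 ± 0.19 (SE), with an adjusted p of 0.217 by limma. Ctsd was at 12094, 9201, 10259 and 8776 in Sham, 22258, 8733, 9728 and 23346 in KPC and 9817, 12069, 10781 and 10344 in KPC_UA, with KPC replicates 1 and 4 far above every other library and replicates 2 and 3 within the Sham range or just below it. For Ctsd the log2 fold change was 0.53 ± 0.33 (SE), with an adjusted p of 0.323 by limma, and 34.4% of its exonic length is shared with Gm49369 on the same strand. Log2 fold changes were 0.13 ± 0.14 for Ctsb, 0.08 ± 0.30 for Ctsz and -0.25 ± 0.16 for Ctsa, none of them called. Ctsb, Ctsa and Hexa share 12.8%, 10.5% and 12.8% of their exonic length with genes on the opposite strand.

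Among other hydrolases and their helpers, Hexa, a subunit of the enzyme that trims gangliosides, was at 936, 827, 860.3 and 783 in Sham, 1501, 847, 938 and 1737 in KPC and 888, 1127, 970.4 and 969 in KPC_UA. Neu1, a sialidase, was at 432, 418, 453 and 386 in Sham, 761, 374, 443 and 586 in KPC and 383, 464, 393 and 405 in KPC_UA. Psap was at 24486, 22203, 22036 and 21830.4 in Sham, 27157, 22231, 20084 and 18449 in KPC and 20264, 25386, 21718 and 22331 in KPC_UA. In Hexa and Neu1 KPC replicates 1 and 4 were the 2 highest libraries and replicates 2 and 3 were at or near Sham levels. In Psap KPC replicate 1 was the highest and KPC replicate 4 the lowest library. Log2 fold changes were 0.49 ± 0.24, 0.30 ± 0.22 and -0.06 ± 0.16, with a smallest adjusted p of 0.227 by limma.

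Of the V-ATPase genes, Atp6v1h, the regulatory subunit H (chromosome 1, 5070018 to 5162529), was at 303, 249, 266 and 336 in Sham, 2712, 374, 449 and 1277 in KPC and 282, 323, 453 and 338 in KPC_UA. All KPC values were above all Sham values, KPC replicate 1 at about 8 times the highest Sham value and replicate 2 close to it. The log2 fold change was 1.60 ± 0.54 (SE), with adjusted p-values of 0.131 by limma and 0.00371 by DESeq2, second to that of Gabarapl1. Atp6v1a, the catalytic subunit that splits ATP (chromosome 16, 44085402 to 44139705), was at 338, 480.2, 406 and 512 in Sham, 1294, 553, 657 and 696 in KPC and 440.5, 383, 474 and 498 in KPC_UA. Its KPC values lay above the other 8 libraries, with a log2 fold change of 0.82 ± 0.27 (SE) and adjusted p-values of 0.126 by limma and 0.0383 by DESeq2. Atp6v1c1, subunit C, was at 668, 618, 661 and 604 in Sham, 1176, 781, 723 and 779 in KPC and 687, 741, 698 and 685 in KPC_UA. Sham was lowest without overlap with either tumour group, with a log2 fold change of 0.41 ± 0.18 (SE) and an adjusted p of 0.204 by limma. For Atp6v1b2, a further subunit of the V1 part of the pump, and Atp6v0d1, of the V0 part in the membrane, log2 fold changes were 0.28 ± 0.25 and 0.34 ± 0.23.

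Genes with and without CACGTG in their windows were set side by side. The median log2 fold change in KPC against Sham was 0.20 over the 12 genes with CACGTG, 0.28 over the 6 with TCACGTGA and 0.47 over the 20 with a window and no CACGTG. DESeq2 called 3 of the 12 higher, Atg14, Ctsl and Atp6v1a, 1 of the 6, Atp6v1a, and 7 of the 20, where 6.79% of all genes were called higher.

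The KPC libraries were far from uniform in these genes. The mean over the 41 genes of log2(normalised reads + 1) exceeded that of Sham by 1.03, 0.0879, 0.211 and 0.601 in KPC replicates 1 to 4, and stood at -0.00643, 0.104, 0.129 and 0.141 from it in the KPC_UA replicates. KPC replicate 1 was the highest of the 12 libraries in 28 of the 41 genes (68.3%, against 32.0% of all genes) and KPC replicate 4 in 7 (17.1%, against 11.9%). Replicates 1 and 4 were the 2 highest KPC libraries in 29 of 41 genes (27.9% of all genes). The median over the genes of the SD of log2 values was 0.451 in KPC, 0.134 in Sham and 0.151 in KPC_UA, where over all genes it was 0.464, 0.226 and 0.233. Roles differed between these 2 libraries. Initiation genes averaged 1.23 above Sham in KPC replicate 1 and 0.248 in replicate 4, V-ATPase genes 1.47 and 0.854, and ATG8 genes 1.65 and 1.34. KPC replicate 4, Sham replicate 1 and KPC_UA replicate 2 also held fewer reads of long transcripts. There the median of genes of over 5000 exonic bases stood at -0.415, -0.393 and -0.428 from that of genes under 2000 bases. In KPC replicate 1 this difference was 0.330, the highest of the 12 libraries. Each gene's log2 values were first set against its mean over the 12 libraries. The exonic length had a median of 5453 bases in the genes highest in KPC replicate 1 and 2351 in those highest in KPC replicate 4, and exonic length was negatively related to the log2 difference of KPC replicate 4 from KPC replicate 1, with a Spearman rho of -0.43 across the 41 genes and -0.33 across 13517 genes. These are values across genes of the same 2 libraries, and genes are not independent replicates. The median log2 fold change in KPC against Sham was 0.35 in the 20 genes of over 5000 exonic bases and 0.34 in the other 21.

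**Figure D4:**
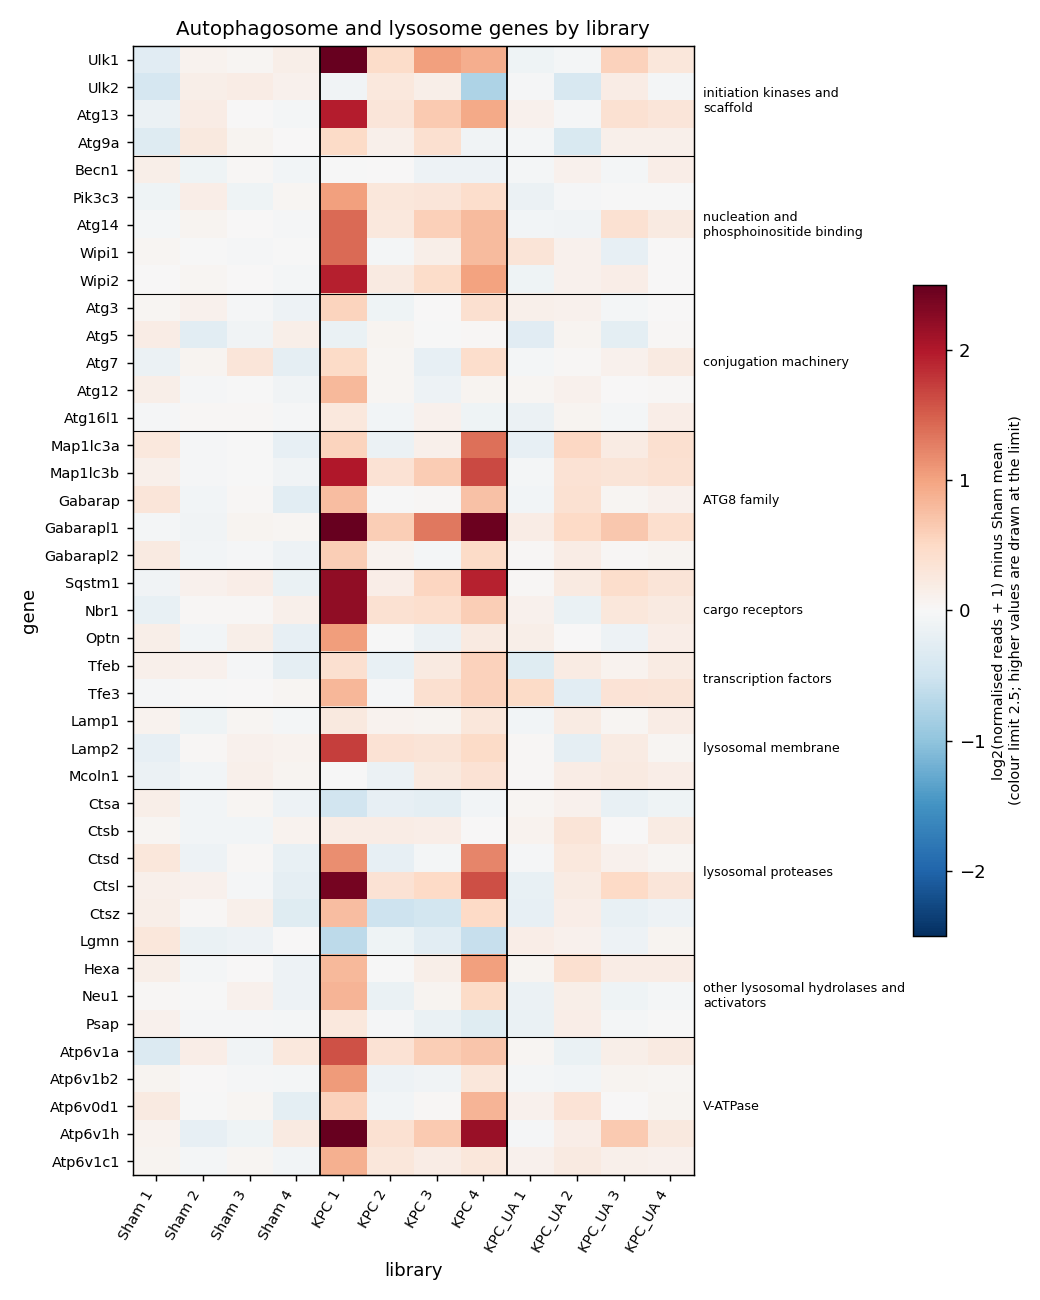
Heat map of the 41 genes by role (rows) in the 12 libraries (columns), coloured by log2(normalised reads + 1) minus the Sham mean, with the colour limit at 2.5. The columns of KPC replicates 1 and 4 are red in most rows outside the conjugation machinery, with means of 1.03 and 0.601, and the KPC_UA columns are pale.

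The calls depended on single libraries. Leaving out each of the 8 libraries in turn, DESeq2 still called Gabarapl1 and Map1lc3b every time. Atp6v1h was called in 7 cases and had no adjusted p without KPC replicate 4. Ulk1 was lost without Sham replicate 1, Ctsl without Sham replicate 3 or 4, and Sqstm1 without KPC replicate 4 or Sham replicate 1 or 4. Atg13 was lost without any one of the Sham replicates, and Atg14, Wipi2 and Nbr1 without KPC replicate 4 or any one of the Sham replicates. Atp6v1a was lost in the same cases and also without KPC replicate 1. The number of the 41 genes called by DESeq2 ran from 4, without Sham replicate 1 or Sham replicate 4, to 16, without KPC replicate 2. The same fits called 5.4% and 6.34% of all genes without those Sham replicates and 21.9% without KPC replicate 2. With limma, 9 of the 41 passed without KPC replicate 2, where 9.97% of all genes did. Without KPC replicate 1 limma called 1 of the 41, Ulk1, at an adjusted p of 0.0476, where 2.92% of all genes were called. Without KPC replicate 1 the limma log2 fold change was 0.80 for Ulk1, 1.46 for Gabarapl1, 1.06 for Atp6v1h, 0.63 for Atg13, 0.56 for Wipi2 and 0.47 for Nbr1. For Optn it was 0.02, for Atp6v1b2 0.02 and for Wipi1 0.30, and without KPC replicate 4 it was 0.18 for Map1lc3a. In all, the fold change of 29 of the 41 genes shrank by more than 1.5 times, or turned, when some library was left out, in 18 of them most without KPC replicate 1 and in 8 most without KPC replicate 4.

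The second comparison, of KPC_UA with KPC, concerns the ursolic acid diet among tumour-bearing mice. It shares the KPC libraries with the first, so a KPC library that stands high adds to both with opposite sign, and a gene picked for high KPC values leans lower here by that choice. Gabarapl1 was at 5859 ± 6752 normalised reads in KPC and 1112 ± 158 in KPC_UA (SD, n = 4 per group), and Sqstm1 at 38728 ± 24382 and 16825 ± 1979.6. The median log2 fold change of the 41 genes was -0.27, against 0.00 over all 13522 genes tested. Of the 41, 34 were negative, beside 6797 of those 13522. With quantile scaling the median of the 41 was -0.11. With limma 0 of the 41 passed, as did 0 of all genes (0.0%), with a smallest adjusted p of 0.382 by limma. At an unadjusted p under 0.05, 12 of the 41 were lower and 1 higher, where 6.49% and 6.18% of all genes were. DESeq2 called 1 of the 41, Gabarapl1, lower and 0 higher (0.563% and 0.208% of all genes), and edgeR over all 12 libraries 0 of 41 (0.0149%). In 5 genes, Pik3c3, Wipi2, Nbr1, Lamp2 and Atp6v1a, the KPC_UA values lay below all KPC values (4.14% of all genes), and in 0 above (3.78%).

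The log2 fold change of Gabarapl1 was -1.72 ± 0.63 (SE), with adjusted p-values of 0.382 by limma and 0.0241 by DESeq2. Its highest KPC_UA value was above its lowest KPC value, that of replicate 2. The DESeq2 call was lost without KPC replicate 1 or 4, or KPC_UA replicate 1, 2 or 4. Without KPC replicate 2, DESeq2 called 11 of the 41, all lower, and without KPC replicate 3 it called 4, where it called 9.54% and 1.91% of all genes. Without KPC replicate 1 the limma log2 fold change was -1.01 for Gabarapl1, and in 37 of the 41 genes leaving out some library shrank the fold change by more than 1.5 times or turned it. Log2 fold changes by limma were -1.34 for Atp6v1h, -1.06 for Ulk1, -1.004 for Ctsl, -0.96 for Sqstm1 and -0.90 for Map1lc3b, with SEs from 0.34 to 0.54. In the genes without overlap they were -0.86 for Wipi2, -0.79 for Nbr1, -0.76 for Atp6v1a, -0.70 for Lamp2 and -0.56 for Pik3c3. Atg13 and Atg14 were at -0.77 and -0.65. The 1 gene higher in KPC_UA at an unadjusted p under 0.05 was Lgmn, at 0.45 ± 0.18.

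The third comparison, of KPC_UA with Sham, asks how far muscle of tumour-bearing mice fed ursolic acid lay from tumour-free muscle. The median log2 fold change of the 41 genes was 0.08, against 0.01 over all 13567 genes tested, 32 of 41 were positive (52.1% of all genes), and 37 lay between -0.25 and 0.25. With limma 0 of the 41 passed (0.0% of all genes), with a smallest adjusted p of 0.306 by limma, and at an unadjusted p under 0.05 only Gabarapl1 was higher and 0 were lower (3.53% and 4.41% of all genes). Gabarapl1 was at 809 ± 43.0 normalised reads in Sham and 1112 ± 158 in KPC_UA (SD, n = 4 per group) without overlap, a log2 fold change of 0.45 ± 0.12 (SE), with adjusted p-values of 0.306 by limma and 0.04998 by DESeq2. DESeq2 called no other of the 41 genes (0.383% of all genes higher and 0.31% lower), and this call, at the edge of the threshold, held only without KPC_UA replicate 1 among the 8 libraries left out. edgeR over all 12 libraries called 0 of 41 (0.0% of all genes). Gabarapl1 and Atp6v1c1 were the 2 genes with KPC_UA above Sham without overlap (2.08% of all genes, and 2.02% lower), the latter with a log2 fold change of 0.15 ± 0.09. Atp6v1h was at 0.27 ± 0.16, Map1lc3b at 0.26 ± 0.12, Sqstm1 at 0.26 ± 0.13 and Hexa at 0.22 ± 0.11. The KPC mean was the highest of the 3 group means in 33 of the 41 genes. In 28 genes the KPC_UA mean lay above the Sham mean and below the KPC mean. All 4 KPC_UA values lay inside the Sham range in 6 genes.

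The 41 genes were set beside 108 further genes of the same organelles in KPC against Sham. Both lists were chosen with earlier results of these data known. Over these 108 the median log2 fold change was 0.00, 54 were positive, limma called 0 and DESeq2 called 7 higher and 4 lower, where it called 6.79% of all genes higher and 5.03% lower, so these counts stood near the background. The 32 other autophagy genes had a median of 0.34, with 4 called higher by DESeq2 and 0 lower. Among them Calcoco1, a cargo receptor, was at 0.81 (adjusted p = 0.0230 by DESeq2) and Wdr45, a relative of the WIPI proteins, at 0.54 (adjusted p = 0.0279 by DESeq2). Epg5, a tether for fusion with lysosomes, was at 0.92 (adjusted p = 0.0609 by DESeq2). The 37 other lysosomal enzymes had a median of -0.17, with 2 called higher and 4 lower. Lower were Sgsh, a sulfatase for heparan sulfate, at -1.42 (adjusted p = 0.00762 by DESeq2), Ctsk, the collagen-cutting cathepsin K, at -1.04 (adjusted p = 0.00311 by DESeq2) and Gla, an alpha-galactosidase, at -0.96 (adjusted p = 0.00573 by DESeq2). The 26 other membrane and sorting genes had a median of -0.09 and 1 call, Npc1, a cholesterol exporter of the lysosome, at 1.87 (adjusted p = 0.00180 by DESeq2). The 13 other V-ATPase subunits had a median of 0.06 and 0 calls, with Atp6ap1 at -0.31 and Atp6ap2 at 0.40. In KPC_UA against KPC the medians of these lists were -0.29, 0.18, 0.07 and -0.02, and in KPC_UA against Sham 0.04, -0.02, 0.00 and 0.03.

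**Figure D5:**
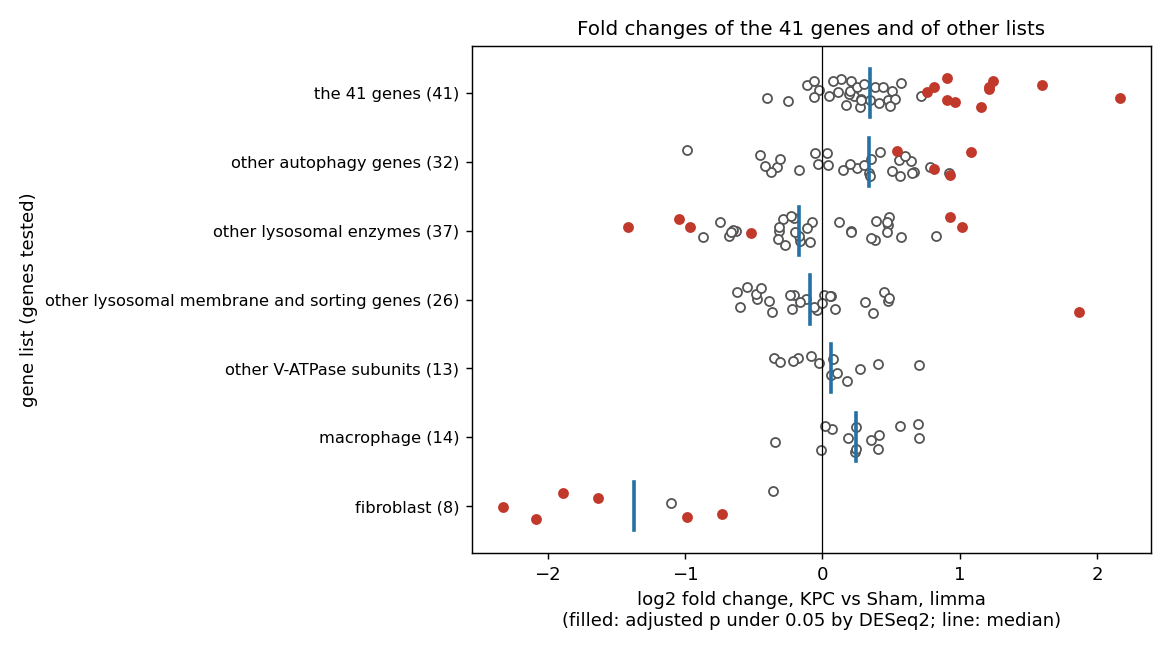
Log2 fold changes in KPC against Sham of the 41 genes, of 4 further lists of the same organelles and of macrophage and fibroblast markers, 1 point per gene, with a line at each median and filled points for an adjusted p under 0.05 by DESeq2. The 41 genes and the other autophagy genes have medians of 0.34, the other lysosomal enzymes -0.17, and the fibroblast markers lie furthest to the left.

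Lysosomal genes are also expressed by other cells of muscle, so markers of those cells were read in the same libraries. Of 17 macrophage markers 14 were listed. Their summed normalised reads ran from 1037 to 1495 in Sham, from 1222 to 2377 in KPC and from 1345 to 1732 in KPC_UA, and 0 was called in KPC against Sham by limma or DESeq2, with 0 at an unadjusted p under 0.05. Of the 14, 12 had a positive log2 fold change in KPC against Sham, with a median of 0.24, beside 35 of 41 and 0.34 for the 41 genes. In KPC_UA against Sham 11 of the 14 were positive, with a median of 0.30. There 4 were higher and 0 lower at an unadjusted p under 0.05 by limma, where 3.53% and 4.41% of all genes were. In KPC_UA against KPC 8 of the 14 were positive. In KPC against Sham the log2 fold change was 0.07 for Adgre1, 0.71 for Cd68, -0.01 for Csf1r and 0.40 for Lyz2. The highest sum was in KPC replicate 4, and KPC replicate 1, where most of the 41 genes were highest, was at 1226, within the Sham range. The 8 fibroblast markers ran from 8741 to 12897 in Sham, from 3744 to 6031 in KPC and from 5581 to 9460 in KPC_UA. Limma called 3 of them lower in KPC, Col1a1, Col3a1 and Mfap5, where it called 112 of all 13542 genes lower. DESeq2 called 6 lower, where it called 5.03% of all genes lower. Of 6 neutrophil markers 3 were listed. Their sums were 9.86 to 22.7 in Sham, 30.3 to 189 in KPC and 33.7 to 78.5 in KPC_UA. In KPC against Sham S100a9 rose (log2 fold change 2.74 ± 0.56, with an adjusted p of 0.0494 by limma). DESeq2 called 2 of the 3 higher, where it called 6.79% of all genes higher. Erythroid sums ran from 749 to 3442 in Sham, from 2787 to 10633 in KPC and from 2486 to 15996 in KPC_UA. In KPC against Sham DESeq2 called 4 of the 6 erythroid markers higher, where it called 6.79% of all genes higher. Limma and edgeR over all 12 libraries called 0 of the 6. The 5 listed adipocyte markers summed to 241 to 611 in Sham, 82.9 to 126 in KPC and 108 to 426 in KPC_UA. Limma called 3 of them lower in KPC (112 of all 13542 genes), and DESeq2 called all 5 lower (5.03% of all genes). The 6 endothelial markers summed to 4696 to 5625 in Sham, 3996 to 5608 in KPC and 3690 to 6223 in KPC_UA. In KPC against Sham DESeq2 called 1 of the 6 higher and 1 lower (6.79% and 5.03% of all genes), and limma called 0. The part of these cells in the levels of the 41 genes was not tested.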

How the data were processed

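Total RNA of tibialis anterior was sequenced, per the labels' protocols. The submitters' processing notes name bcl2fastq 2.17, Subread 1.5.2 with featureCounts, and GRCm38, and no aligner or strand setting was given in the sources used here. For each pair of groups the authors deposited a table with a normalised signal (reads over a size factor) for every gene in 8 libraries. The same tables hold the authors' log2 fold changes and p-values, raw and adjusted, per the file headers. Dividing by each column's step gave whole reads (100.0% of values, tolerance 0.01 reads), on which DESeq2 called 1595, 100 and 94 genes. No listed gene had fewer than 81 reads.

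Each pair was tested in its own table with limma 3.58.1 (R 4.3.3; trend and robust settings, two-sided, no covariates) on log2 of the deposited value plus 1, a scale that understates changes of low genes. Genes needed a mean of 10 or more, which all 41 passed, and p-values were adjusted by Benjamini-Hochberg (threshold 0.05). Values per library are recovered reads over size factors for all 12 libraries, lengths and positions come from GENCODE M21, and promoters from RefSeq. Alternatives were pseudocounts of 0.5 and 5, no filter, a mean of at least 50, TMM and quantile scaling, plain limma, DESeq2 1.42.0, edgeR 4.0.16, the authors' adjusted p-values, a replicate block and each library left out. Leaving out libraries with DESeq2 was chosen after seeing the data. The steps were tested on simulated data with the same spread setting for all genes and no outlying library. Groups as uneven as KPC were therefore not covered by that test.

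The 41 genes, the other lists and the naming rule were chosen with earlier results of these data known. Values in every library are given for up to 3 genes of each role with the smallest limma p in KPC against Sham, and fold changes for up to 3 genes of each other list, plus Adgre1, Cd68, Csf1r and Lyz2.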

Additional observations from a re-analysis of the deposited data

Results flagged for a closer look

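In 8 of the 123 sets of 4 libraries (41 genes in 3 groups), a single library stood apart from the other 3 by more than Dixon's critical share of the whole range, where chance gives about 1 in 20. Of these, 6 were in KPC, 2 in Sham and 0 in KPC_UA.

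KPC replicate 1 was far above the other KPC libraries in 5 genes. It held 14278 normalised reads of Ulk1, 8929 of Nbr1, 5219.6 of Lamp2, 1176 of Atp6v1c1 and 1073 of Atg12. In Ctsb, cathepsin B, KPC replicate 4 was the low library at 7477, with the other KPC libraries at 8379, 8406 and 8267. Sham replicate 1 was low in Ulk2 at 2219 and high in Psap at 24486. Without KPC replicate 1 the limma log2 fold changes in KPC against Sham were 0.38 for Lamp2, 0.47 for Nbr1 and 0.25 for Atp6v1c1.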

How the results depend on the processing

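The medians of the 41 genes kept their sign under every alternative run, from 0.34 to 0.20, -0.27 to -0.11 and 0.08 to 0.05 with quantile scaling. In KPC against Sham, where limma called 160 genes and 0 of the 41, the counts were 87 genes with a mean of at least 50, 257 with quantile scaling, 1595 and 11 with DESeq2 and with the authors' adjusted p-values, and 1493 and 10 with edgeR over all 12 libraries. On the libraries of this pair alone edgeR called 0 of the 41. Leaving out 1 library gave 0 to 1350 genes and 0 to 9 of the 41 by limma, and 4 to 16 of the 41 by DESeq2. In KPC_UA against KPC, with 0 and 0 by limma, DESeq2 gave 100 and 1, the authors' values 99 and 1 and edgeR over all 12 libraries 2 genes, and leaving out 1 library gave 0 to 3 genes by limma and 0 to 11 of the 41 by DESeq2. In KPC_UA against Sham, with 0 and 0, DESeq2 and the authors' values gave 94 and 1, and leaving out 1 library gave 0 to 4 genes by limma and 0 to 2 of the 41 by DESeq2.

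Directions turned in KPC against Sham for 6 genes with log2 fold changes near 0, and the cause was not tested. With quantile scaling Atg16l1 was at -0.073, Ctsb at -0.045 and Ctsz at -0.060. Leaving out 1 library turned Ulk2 (0.10 without KPC replicate 4), Atg16l1 (-0.021 without KPC replicate 1), Atg5 (range -0.11 to 0.038), Ctsz (-0.15 to 0.27) and Psap (-0.16 to 0.020). In KPC_UA against KPC leaving out 1 library turned 9 of the 41 genes, among them Ulk2 (0.04 to -0.18), Atg12 (-0.16 to 0.045), Map1lc3a (-0.25 to 0.051) and Optn (-0.23 to 0.025), and in KPC_UA against Sham 13, with sizes of at most 0.066.

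Groups share replicate numbers, but same-numbered libraries did not deviate together (correlations from -0.26 to 0.13), so the numbers were not taken as pairs. With the replicate block limma called 66 genes in KPC against Sham, 0 in the others, and 0 of the 41 in each.

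The lowest mean level of the 41 genes in Sham was that of Tfe3, at 186 normalised reads; genes under 81 reads in all were not analysed here.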
